A study of Arabidopsis thaliana with 208 samples.

Results

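The anion channel genes described here are 6 genes of Arabidopsis thaliana, picked by name from 2 families: CLCa (AT5G40890), CLCb (AT3G27170) and CLCc (AT5G49890) of the CLC family, and SLAH1 (AT1G62280), SLAH2 (AT4G27970) and SLAH3 (AT5G24030) of the SLAC family. They are 6 of the 33323 nuclear loci listed, and all 6 were among the 19664 genes with enough counts to be tested.

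Transcripts were counted by BRAD-seq DGE, a sequencing of tags near the 3′ ends of transcripts, in roots of seedlings 9 days old. The wild type, Col, was grown beside 12 T-DNA insertion lines: SALK_146141, SALK_100002, SALK_094437C, SALK_085964C, SALK_070847C, SALK_035980, SALK_015182, SALK_012253, SAIL_1207_H04, GABI_868_E02, GABI_699B09 and GABI_513E07. All 13 were on 1 and on 10 mM KNO3 with 4 biological replicates, which gives 26 groups and 52 libraries at each concentration. Each library was sequenced in 2 runs, summed here to between 3981966 and 13695037 counts (median 8330750). The KCl was 10 mM in both media, so potassium rose together with nitrate, and the effects of these ions cannot be told apart. A replicate pooled the seedlings of 2 plates. The labels name the lines and not the disrupted genes, and nothing in them says how many insertions a line holds.

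Root nitrate is either used at once, stored in the vacuole, sent to the shoot through the xylem or released to the soil. CLC proteins sit in membranes inside the cell. CLCa is the exchanger that drives nitrate into the vacuole against protons, CLCb can do the same exchange, and CLCc, also of the vacuolar membrane, is tied mainly to chloride. SLAC and SLAH proteins are anion channels of the plasma membrane that let anions out of the cell: SLAH3 conducts nitrate and also chloride, SLAH2 is selective for nitrate, and SLAH1, which is silent when expressed alone, assembles with SLAH3 in the root stele and promotes chloride transfer to the xylem.

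The CLC proteins differ at a residue that sets which anion is preferred, so the stretch of coding sequence around it is shown for the 3 CLC genes, from the RefSeq copy of assembly TAIR10.1, with that codon in capitals. It is a proline codon, at residue 160 of CLCa and residue 159 of CLCb, and a serine codon at residue 169 of CLCc. The stretches lie in coding exons at chr5:16383711-16383758 on the minus strand for CLCa, chr3:10024787-10024834 on the plus strand for CLCb and chr5:20290915-20290962 on the minus strand for CLCc.
CLCa: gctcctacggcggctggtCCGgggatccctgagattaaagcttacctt
CLCb: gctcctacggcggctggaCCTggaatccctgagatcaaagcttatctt
CLCc: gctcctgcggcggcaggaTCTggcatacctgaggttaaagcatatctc
Over the whole protein, CLCa and CLCb were identical at 88.6% of 773 aligned residues. CLCc was identical to CLCa at 53.0% and to CLCb at 54.4%. SLAH2 and SLAH3 shared 59.4% of residues, and SLAH1 shared 37.8% with SLAH2 and 36.2% with SLAH3. The closest relative of SLAH1 was SLAH4 (AT1G62262), which lies near it on chromosome 1, at 83.8%. No run of 30 bases was shared between the transcripts of any 2 of the 3 CLC genes, or of any 2 of the 3 SLAH genes. SLAH1 and SLAH4 transcripts shared 21 such runs, counted at every offset, so they can overlap each other. None was shared within the last 500 bases, where the tags of this method fall.

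The windows upstream of CLCa and CLCb are shown because these close relatives moved in opposite directions, as described next. They span 250 bases before the annotated start in TAIR10.1, at chr5:16385425-16385674 on the minus strand for CLCa and chr3:10023681-10023930 on the plus strand for CLCb. Searched on both strands of 300-base windows, which add 50 bases past the start, were GACNCTT, from the element bound by the nitrate-responsive NIN-like proteins, and GAATC, bound by repressors of the NIGT1 family. These motifs share no overlap. Capitals mark the match to GACNCTT, which in CLCb lies on the opposite strand.
CLCa: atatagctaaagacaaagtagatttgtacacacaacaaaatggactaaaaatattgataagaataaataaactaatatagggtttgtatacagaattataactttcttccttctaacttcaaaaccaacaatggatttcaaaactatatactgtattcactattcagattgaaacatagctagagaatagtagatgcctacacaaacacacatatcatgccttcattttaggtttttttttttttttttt
CLCb: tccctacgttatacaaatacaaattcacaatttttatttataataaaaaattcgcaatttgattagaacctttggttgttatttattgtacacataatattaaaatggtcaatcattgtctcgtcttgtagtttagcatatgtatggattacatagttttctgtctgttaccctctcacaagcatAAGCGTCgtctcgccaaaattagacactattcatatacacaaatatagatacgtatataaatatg
CLCb carried the match 65 bases before its start, and SLAH2 carried one 17 bases before its start. GAATC was found in the window of SLAH1, 122 bases before the start, and neither motif in those of CLCa, CLCc and SLAH3. Of 27443 windows of the same length over the genome, 8.64% held GACNCTT and 45.1% held GAATC.

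Which of these genes follow the nitrate supply was asked over all 13 lines. A gene is said to be called when its adjusted p in edgeR's quasi-likelihood test, with Benjamini-Hochberg adjustment over all genes tested, was under 0.05. Over all lines 12675 genes were called, which is 64.5% of those tested, so a call alone does not set a gene apart. With 34.1% of genes called higher and 30.4% called lower, CLCa, SLAH1 and SLAH2 rose at 10 mM KNO3, CLCb and SLAH3 fell, and CLCc was not called. Over all genes tested the median log2 change was 0.02 and the median size 0.17.

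Levels are given as CPM, counts relative to the size of a library scaled with the trimmed-mean factors of edgeR. CLCa, the vacuolar nitrate exchanger, stood at 40.5 CPM in the lowest 1 mM library, 59.0 in the median and 73.5 in the highest. At 10 mM the lowest library held 119 CPM, the median 159 and the highest 217. All 52 libraries at 10 mM therefore lay above all 52 at 1 mM. The means were 58.1 ± 6.95 CPM (SD, n = 52) and 160 ± 18.6 CPM (n = 52), a log2 change of 1.47 ± 0.03 (SE), or 2.77-fold, with an adjusted p of 4.86e-59. Only 3.35% of the genes tested changed by more on the log2 scale. In bulk roots, fewer cells of a type and less RNA per cell cannot be told apart, and this holds for every level given here. The share of all genes whose libraries lay apart between the concentrations was not counted, so no separation given here sets a gene apart.

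CLCb, the close relative of CLCa, went the other way. Its level ran from 56.7 CPM through a median of 78.4 to 134 at 1 mM, and from 32.7 through 45.1 to 61.6 at 10 mM. The ranges met only at their edges: 47 of the 52 libraries at 10 mM lay below the lowest at 1 mM. The mean fell from 79.4 ± 14.5 to 47.0 ± 6.47 CPM (SD, n = 52 each), a log2 change of -0.75 ± 0.04 (SE) and an adjusted p of 5.67e-31, and 9.88% of genes changed by more.

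CLCc, the vacuolar chloride gene, held 17.7 ± 3.04 CPM (SD, n = 52) at 1 mM, with a lowest, median and highest library of 11.4, 17.7 and 23.7. At 10 mM it held 16.6 ± 3.96 CPM, with 9.6, 15.5 and 25.0. The ranges covered each other almost wholly. The log2 change was -0.10 ± 0.06 (SE), with a 95% interval from -0.21 to 0.01 and an adjusted p of 0.125, so a change of the size of that of CLCb lies outside the interval. The value depended on the sequencing run. In CPM of the run totals, without the trimmed-mean factors, CLCc averaged 17.2 at 1 mM and 13.9 at 10 mM in run 1. The tested log2 change in that run was -0.29 (adjusted p 0.00864). In run 2 CLCc averaged 18 and 18.4 CPM on the same scale, with a tested log2 change of 0.01 (adjusted p 0.894). The change also depended on single replicate numbers and on a line: CLCc was called lower without replicate 3 (-0.19, adjusted p 0.0147), without replicate 4 (-0.16, adjusted p 0.034) and without GABI_699B09 (-0.13, adjusted p 0.0461), and without replicate 1 it was at 0.01.

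SLAH1, the stelar partner of SLAH3, was the least counted of the 6 genes, with 0 to 41 counts in a library at 1 mM and 4 to 65 at 10 mM. A single library held none, which allows up to 3. Its level ran from 0 CPM through a median of 1.25 to 4.2 at 1 mM and from 0.446 through 2.44 to 7.94 at 10 mM, so the concentrations overlapped widely. The mean rose from 1.44 ± 0.881 to 2.71 ± 1.64 CPM (SD, n = 52 each), a log2 change of 0.92 ± 0.16 (SE) with an adjusted p of 1.92e-07. Without the replicates numbered 1 it was 0.46, with an adjusted p of 0.0101.

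SLAH2, the nitrate-selective channel, ran from 2.63 CPM through a median of 5.73 to 8.21 at 1 mM and from 5.08 through 8.34 to 11.5 at 10 mM. Of the 52 libraries at 10 mM, 30 lay above the highest at 1 mM. The mean rose from 5.62 ± 1.21 to 8.42 ± 1.53 CPM (SD, n = 52 each), a log2 change of 0.57 ± 0.06 (SE) with an adjusted p of 3.52e-15.

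SLAH3 had the smallest change among the 5 genes called. Its lowest, median and highest libraries were at 4.5, 9.2 and 13.5 CPM at 1 mM and at 4.85, 7.79 and 11.9 CPM at 10 mM, nearly the same range. The mean fell from 9.15 ± 1.95 to 7.92 ± 1.75 CPM (SD, n = 52 each), a log2 change of -0.22 ± 0.06 (SE) with an adjusted p of 0.000573. Without the replicates numbered 1 it was -0.35, with an adjusted p of 2.22e-06. A larger change than that over all libraries was seen in 41.1% of the genes tested.

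**Figure D1:**
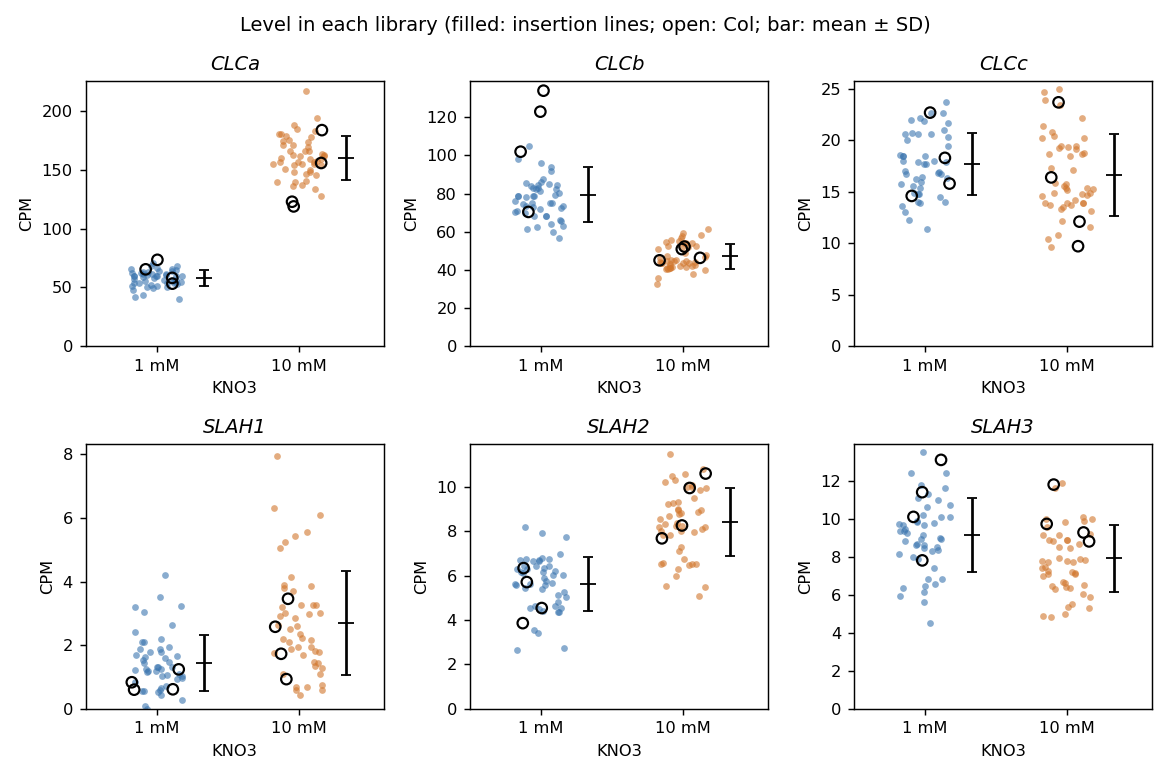
Level in CPM (vertical axes) of each gene in the 52 libraries at 1 mM and the 52 at 10 mM KNO3, with insertion lines as filled points, Col as open circles, and the mean ± SD as a bar beside them. The clouds of CLCa are fully apart and those of CLCb nearly so, while the other 4 genes overlap between the concentrations. In CLCb at 1 mM, 3 of the Col circles lie high, at 102, 123 and 134 CPM.

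The titles of the samples give each library a number from 1 to 13 after the letters str, with 8 libraries to a number. These sets are called strips here, and the labels do not say what they stand for. A strip was filled from 1 concentration in 10 of the 13, equally for 1 and 10 mM, and 3 strips mixed them. Strips also followed the replicate numbers. In each of the 3 mixed strips CLCa was higher at 10 mM without overlap, with log2 ratios of the means of 1.29, 1.54 and 1.31. CLCb was lower without overlap in each, with -0.95, -0.99 and -0.54. For SLAH2 the ratios were 0.55, 0.49 and 0.35, all toward 10 mM, and the libraries were apart in 1 of the 3 strips. How many of all genes were apart in the mixed strips was not counted.

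SLAH1 and SLAH3 were less even across strips. SLAH1 had log2 ratios of 1.27, 1.24 and -0.49 in the mixed strips, and SLAH3 had 0.19, -0.46 and -0.18. With strip as a term in the model the change of SLAH1 was 0.67 with an adjusted p of 0.0589, and that of SLAH3 was -0.25 with an adjusted p of 0.0971, so neither was called. In the mixed strips alone they were 0.74 (adjusted p 0.0701) and -0.20 (adjusted p 0.221). CLCa, CLCb and SLAH2 kept their calls over all lines under every alternative that was run.

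The replicates of SLAH1 at 10 mM show where its spread lies. In 12 of the 13 lines the replicate numbered 1 was the highest of the 4. Replicates numbered 1 averaged 4.61 ± 1.76 CPM (SD, n = 13), against 2.48 ± 1.00 for those numbered 2, 1.65 ± 0.722 for those numbered 3 and 2.09 ± 1.11 for those numbered 4. At 1 mM the same numbers averaged 1.13, 1.92, 0.998 and 1.70 CPM. By strip, SLAH1 at 10 mM averaged between 1.76 and 4.49 CPM in the 5 strips that held 10 mM libraries alone, and CLCc between 14.1 and 20.8 CPM. CLCa spanned only 153 to 172 CPM over the same strips.

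**Figure D2:**
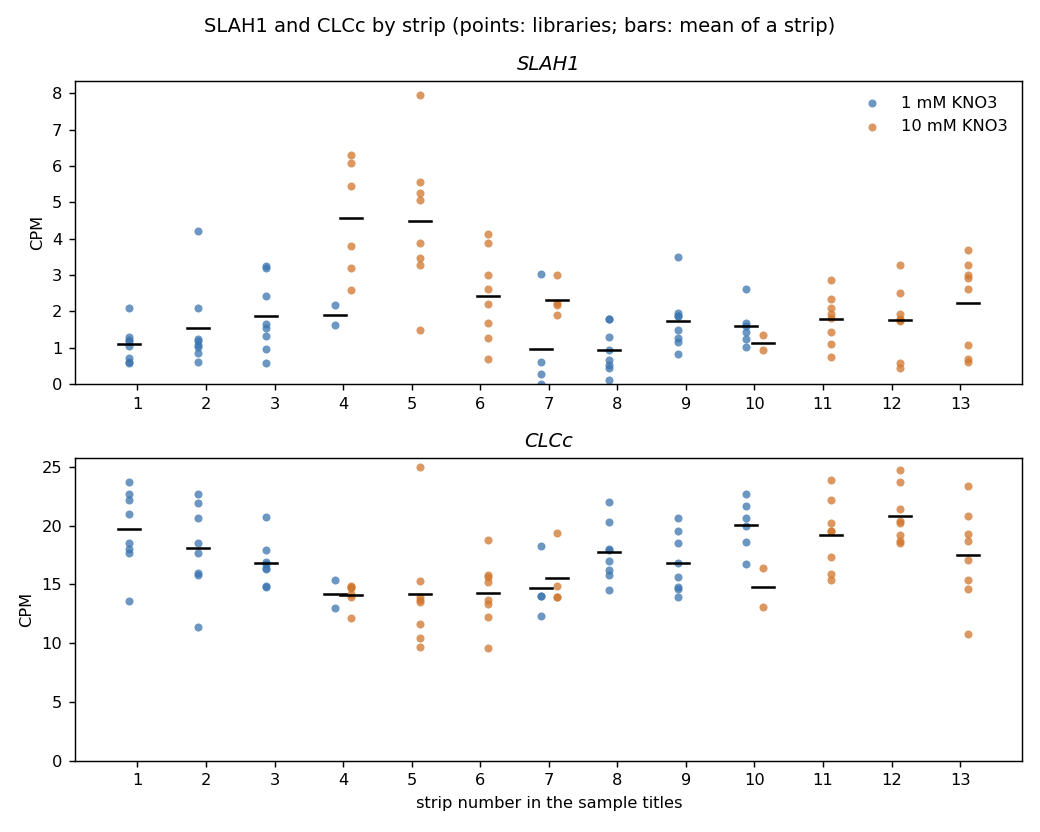
Level in CPM (vertical axes) of SLAH1 and CLCc in each library, by strip number (horizontal axis), with 1 mM libraries in blue, 10 mM libraries in orange and the mean of a strip as a bar. The 10 mM libraries of strips 4 and 5 hold the high SLAH1 values, with strip means of 4.57 and 4.49 CPM, and CLCc is higher in the 10 mM libraries of strips 11 and 12, with means of 19.2 and 20.8 CPM, than in those of strips 4 to 6, with means of 14.1 to 14.3 CPM.

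In Col alone 4771 genes were called, or 24.3%. Col CLCa was at 58.1, 53.2, 73.5 and 65.4 CPM in the 4 replicates at 1 mM and at 123, 184, 119 and 156 CPM at 10 mM, with no overlap. The log2 change was 1.22 ± 0.12 (SE), with an adjusted p of 2.16e-14. Col CLCb was at 70.4, 123, 134 and 102 CPM at 1 mM and at 45.0, 52.2, 50.9 and 46.3 CPM at 10 mM, again apart. Its log2 change was -1.15 ± 0.14, with an adjusted p of 4.33e-10.

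Col SLAH2 held 5.71, 6.34, 4.54 and 3.86 CPM at 1 mM and 9.95, 7.68, 8.26 and 10.6 CPM at 10 mM, with no overlap. It rose by 0.83 ± 0.21 on the log2 scale (adjusted p 0.00126), a call that was lost with run 1 alone (adjusted p 0.162) and without replicate 4 (adjusted p 0.0567). Col SLAH1 was at 0.601, 1.24, 0.613 and 0.835 CPM at 1 mM and at 2.58, 3.46, 0.933 and 1.73 CPM at 10 mM. A single 10 mM library lay inside the 1 mM range. The log2 change of 1.38 ± 0.58 was not called (adjusted p 0.0697), with an interval from 0.25 to 2.51, and it was called when Col was fitted alone (adjusted p 0.0226) and with replicate number as a block (1.33, adjusted p 0.0424). With strip as a term it was 0.79 (adjusted p 0.255). For CLCc and SLAH3 the Col changes were -0.22 ± 0.20 and -0.11 ± 0.20, with adjusted p of 0.485 and 0.745, and with strip as a term that of SLAH3 was -0.34 (adjusted p 0.202).

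Each insertion line was compared in the same way. The share of all genes called was 22.2% in SALK_146141, 20.1% in SAIL_1207_H04, 18.9% in SALK_015182, 18.2% in GABI_868_E02, 18% in SALK_100002, 17.9% in GABI_513E07, 17.2% in GABI_699B09 and in SALK_094437C, 16.4% in SALK_035980, 15.3% in SALK_085964C, 14.5% in SALK_070847C and 13.6% in SALK_012253. CLCa was called in all 13 lines, Col included, and was higher at 10 mM in each, from 1.22 in Col to 1.73 ± 0.12 in SALK_146141, and in each line the 4 libraries at 10 mM lay above the 4 at 1 mM. CLCb was called in all 13 lines and was lower in each, from -1.15 in Col to -0.53 ± 0.14 in SAIL_1207_H04, and the libraries were apart in 12 of them. In 4 of these lines the CLCb call was lost under 1 alternative each: with run 1 alone in GABI_513E07 (adjusted p 0.0518), with run 2 alone in SALK_015182 (0.0852), without replicate 3 in GABI_699B09 (0.0616) and without replicate 4 in SAIL_1207_H04 (0.078). Col thus had the smallest rise of CLCa and the largest fall of CLCb among the 13 lines. How many of all genes had their libraries apart in each line was not counted.

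SLAH2 was higher at 10 mM in all 13 lines, with log2 changes from 0.35 ± 0.21 in SALK_012253 to 0.87 ± 0.21 in GABI_699B09. Its libraries were apart in 8 lines, again without a count of all genes so apart. SLAH2 was called in 6: Col, GABI_699B09, SAIL_1207_H04, SALK_015182, SALK_094437C and SALK_146141. Each of these 6 calls was lost with run 1 alone. Those in SAIL_1207_H04 and SALK_094437C were also lost under several other alternatives. With strip as a term their adjusted p were 0.118 and 0.363, and with limma 0.0516 and 0.0595. The call in SALK_015182 was also lost with strip as a term (0.144) and without replicate 1 (0.0908), and that in SALK_146141 without replicate 1 (0.0682). SLAH3 was called lower in GABI_513E07 (-0.60 ± 0.22, adjusted p 0.0412) and SAIL_1207_H04 (-0.57 ± 0.21, adjusted p 0.039). Both calls were lost under several alternatives, run 1 alone and strip as a term among them, and in the other 11 lines SLAH3 ranged from -0.57 to 0.01.

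SLAH1 was called in SALK_146141 (1.98 ± 0.56, adjusted p 0.00537) and in SALK_100002 (1.95 ± 0.58, adjusted p 0.0106). At 1 mM the libraries of these lines held few SLAH1 counts, 0 to 17 in SALK_146141 and 2 to 10 in SALK_100002. The SALK_100002 call was lost with run 1 alone (adjusted p 0.0966) and without replicate 1 (0.0624) or 2 (0.0783). In SALK_012253 SLAH1 was at 1.2, 4.2, 3.03 and 1.16 CPM at 1 mM and at 3.81, 0.701, 1.34 and 0.595 CPM at 10 mM, a log2 change of -0.49 ± 0.55 (adjusted p 0.655). CLCc was called by edgeR in none of the 13 lines, with an unadjusted p under 0.05 in 1, and it was called by DESeq2 in 1 (SAIL_1207_H04) and by limma in 0. Its changes ran from -0.52 ± 0.20 in SAIL_1207_H04 (adjusted p 0.0576) to 0.32 ± 0.20 in SALK_146141 (adjusted p 0.271).

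**Figure D3:**
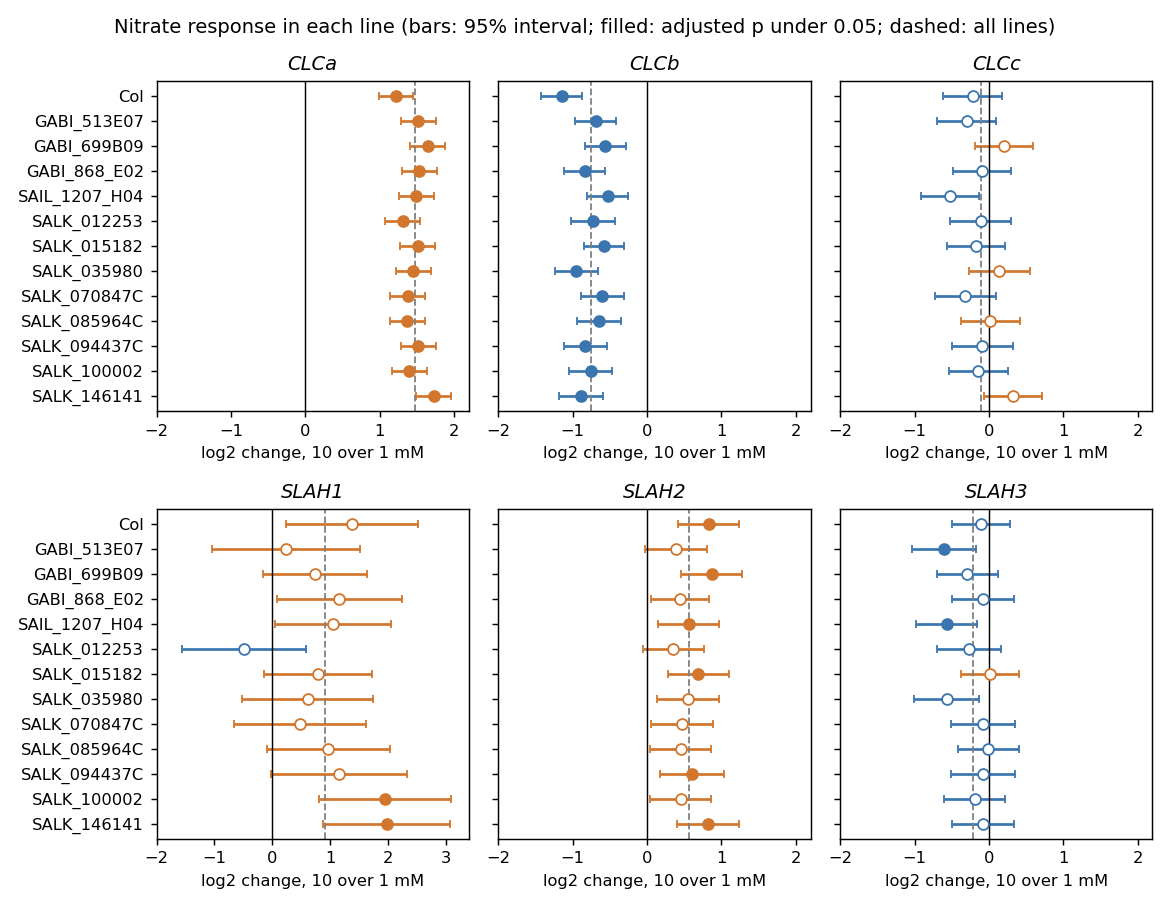
Log2 change between 10 and 1 mM KNO3 (horizontal axes) of each gene in each of the 13 lines, with bars of the 95% interval, filled points for an adjusted p under 0.05 and a dashed line at the value over all lines. Every CLCa point lies at 1.22 or above and every CLCb point at -0.53 or below, SLAH2 lies between 0.35 and 0.87, and the SLAH1 bars are the widest.

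Whether a line responded to nitrate differently from Col was tested as the difference of the responses. None of the 72 pairs of a gene and a line was called by edgeR, by DESeq2 or by limma, and 10 had an unadjusted p under 0.05 in edgeR. Of all genes, 0.0102% were called in GABI_699B09 and in SALK_015182, 0.00509% in GABI_868_E02 and 0% in the other 9 lines, and 558 to 1663 genes had an unadjusted p under 0.05. For CLCa the difference from Col ran from 0.09 in SALK_012253 to 0.51 in SALK_146141, positive in all 12 lines, with a smallest adjusted p of 0.603. For CLCb it ran from 0.20 in SALK_035980 to 0.62 in SAIL_1207_H04, also positive in all 12, with a smallest adjusted p of 0.53. A joint test of any difference in response called 0.0102% of all genes and none of the 6, by edgeR or by limma, with an unadjusted p under 0.05 in 0. All 12 differences share the same 8 Col libraries, so they are not independent. An unadjusted p under 0.05 was found in 2 lines for CLCa, 7 for CLCb, 1 for SLAH1 and none for the other 3 genes.

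Because CLCa rose and CLCb fell, the counts of CLCa per CLCb count within a library moved further than either gene. This ratio needs no scaling between libraries, and since tag counts of different genes need not be equally efficient, only its change is read. At 1 mM it ran from 0.434 through a median of 0.743 to 1.09, and at 10 mM from 2.34 through 3.41 to 4.84 (n = 52 each). The ranges were apart by more than the width of the 1 mM range. In Col it was 0.611 ± 0.166 at 1 mM and 2.99 ± 0.55 at 10 mM (SD, n = 4 each), the lowest mean of the 13 lines at 10 mM. In SALK_146141 it was 0.549 ± 0.0475, the lowest at 1 mM, and 3.51 ± 0.901.

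**Figure D4:**
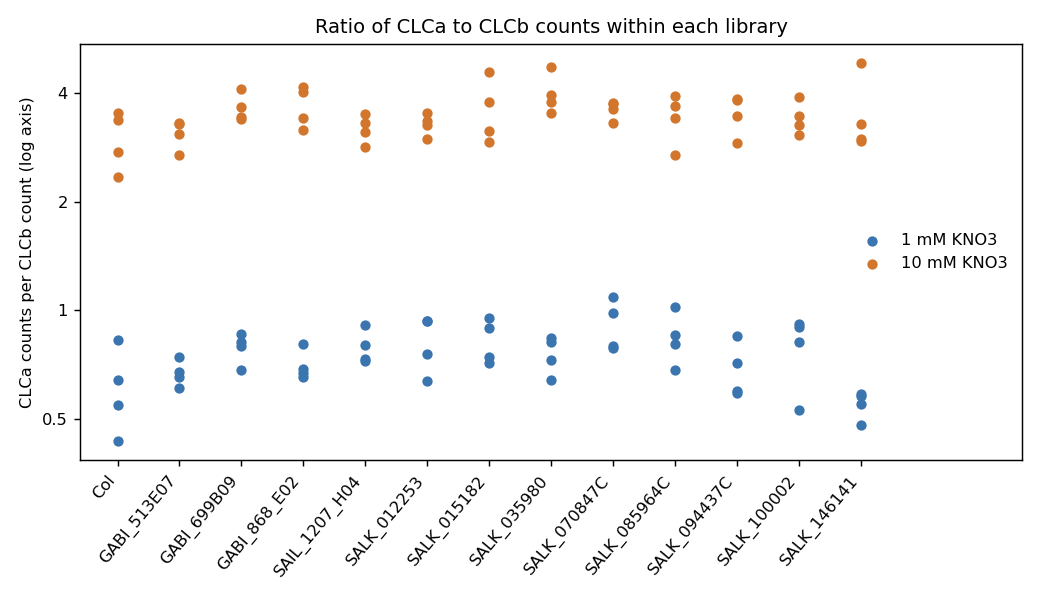
Counts of CLCa per count of CLCb in each library (vertical axis, log scale) for the 13 lines, with 1 mM KNO3 in blue and 10 mM in orange. All 1 mM libraries lie at 1.09 or below and all 10 mM libraries at 2.34 or above.

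The level of each gene was then set out by line. For CLCa the means at 1 mM were 65.7 CPM in SALK_070847C, 62.5 in Col, 61.2 in SALK_012253, 59.6 in SALK_035980, 58.5 in SALK_015182, 58.1 in SALK_085964C and in GABI_699B09, 58.0 in GABI_513E07, 57.9 in SAIL_1207_H04, 57.0 in SALK_100002, 56.9 in GABI_868_E02, 54.4 in SALK_094437C and 46.8 in SALK_146141, with an SD within groups of 6.26 CPM. At 10 mM they were 182 in GABI_699B09, 171 in SALK_070847C, 166 in GABI_513E07 and SALK_015182, 165 in GABI_868_E02, 163 in SALK_035980 and SAIL_1207_H04, 157 in SALK_094437C, 156 in SALK_146141, 151 in SALK_100002 and SALK_012253, 150 in SALK_085964C and 145 in Col, with an SD of 18.1 CPM. No neighbours in either order differed by more than their own SD, and Col moved from rank 2 to rank 13.

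CLCb was highest in Col at 1 mM, at 107 CPM, followed by 86.6 in GABI_513E07, 85.4 in SALK_146141, 80.8 in GABI_868_E02, 79.5 in SALK_094437C, 79.0 in SALK_035980, 76.9 in SALK_012253, 74.6 in SALK_100002, 74.2 in GABI_699B09, 74.1 in SAIL_1207_H04, 72.8 in SALK_070847C, 71.4 in SALK_015182 and 69.9 in SALK_085964C, with an SD within groups of 12.6 CPM. Its order at 10 mM was 53.7 CPM in GABI_513E07, 51.5 in SAIL_1207_H04, 50.1 in GABI_699B09, 48.6 in Col, 47.9 in SALK_070847C, 47.7 in SALK_015182, 46.4 in SALK_012253, 46.2 in SALK_146141, 45.0 in GABI_868_E02, 44.7 in SALK_094437C, 44.4 in SALK_085964C, 44.0 in SALK_100002 and 40.9 in SALK_035980, with an SD of 6.35 CPM. A single gap between neighbours exceeded their SD, the last one at 10 mM, of 3.12 CPM.

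The line means of CLCc lay between 15.6 ± 2.98 CPM in SALK_146141 and 20.1 ± 3.07 CPM in GABI_513E07 at 1 mM (SD, n = 4). At 10 mM they lay between 13.5 ± 2.08 CPM in SAIL_1207_H04 and 22 ± 4.33 CPM in GABI_699B09. SALK_146141, lowest at 1 mM, came after GABI_699B09 at 10 mM with 19.7 CPM, and the Col means were 17.8 and 15.5 CPM.

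SLAH2 was highest in SALK_035980 at both concentrations, with 6.82 ± 0.636 and 10.1 ± 1.11 CPM (SD, n = 4). It was lowest in SALK_146141 at 1 mM (4.83 ± 2.23 CPM) and in GABI_513E07 at 10 mM (7.04 ± 0.994 CPM). SLAH3 was highest in Col at both, with 10.6 ± 2.21 and 9.91 ± 1.34 CPM. Its lowest means were 7.62 ± 2.07 CPM in SALK_085964C at 1 mM and 6.28 ± 1.41 CPM in GABI_513E07 at 10 mM. For CLCc, SLAH1, SLAH2 and SLAH3 no neighbours in the orders differed by more than their SD.

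SLAH1 had the widest range of line means. At 1 mM they ran from 2.66 CPM in GABI_699B09 through 2.4 in SALK_012253, 2.04 in SALK_015182, 1.59 in SAIL_1207_H04, 1.42 in SALK_085964C, 1.41 in SALK_035980, 1.4 in SALK_070847C, 1.18 in GABI_868_E02, 1.13 in SALK_094437C, 0.991 in GABI_513E07, 0.832 in SALK_100002 and 0.822 in SALK_146141 to 0.821 in Col, a ratio of 3.24 between the ends. At 10 mM the means were 4.53 CPM in GABI_699B09, 3.66 in SALK_015182, 3.63 in SALK_146141, 3.19 in SALK_100002, 3.16 in SAIL_1207_H04, 2.61 in GABI_868_E02, 2.52 in SALK_085964C, 2.44 in SALK_094437C, 2.27 in SALK_070847C, 2.24 in SALK_035980, 2.18 in Col, 1.61 in SALK_012253 and 1.13 in GABI_513E07, a ratio of 3.99. The SD within groups was 0.758 CPM at 1 mM and 1.58 CPM at 10 mM.

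Against Col, averaged over both concentrations, 1 of the 72 pairs of a gene and a line was called: SLAH1 in GABI_699B09. In that line 11.6% of all genes were called. The share was 1.54% in GABI_513E07, 0.636% in SALK_012253, 0.605% in SALK_070847C, 0.356% in SALK_035980, 0.27% in SALK_085964C, 0.229% in SALK_015182, 0.214% in SALK_146141, 0.178% in GABI_868_E02, 0.132% in SAIL_1207_H04, 0.122% in SALK_094437C and 0.0509% in SALK_100002. SLAH1 in GABI_699B09 was at 2.09, 3.24, 1.8 and 3.51 CPM at 1 mM and at 7.94, 4.13, 2.35 and 3.69 CPM at 10 mM. At 1 mM all 4 values lay above the highest Col library, while at 10 mM the groups overlapped. The same held at 1 mM for SALK_015182, whose lowest library was at 1.31 CPM against 1.24 CPM in the highest of Col. How many of all genes were apart from Col in this way was not counted. In GABI_699B09 the log2 difference was 1.3 ± 0.37 (SE), with an adjusted p of 0.00863. With run 1 alone it was 0.88 (adjusted p 0.215), and without replicate 4 it was 1.22 (adjusted p 0.0733), so the call was lost in both. Markers of other tissues moved with this line too, and their part in the result was not tested: of 8 photosynthetic markers LHCA3, PSBO1 and LHCB3 were called lower than in Col by 1.24, 0.90 and 0.64 on the log2 scale (adjusted p 3.97e-05, 7.47e-08 and 0.0337), while of 4 phloem markers SEOR1 was higher by 0.49 (0.00419) and of 5 root hair markers PRP3 by 0.46 (0.0314). The other photosynthetic markers were not called. RBCS3B and CAB1 lay higher, at 0.88 and 0.52, and PSAD-1, RCA and RBCS1A lay lower, at -0.56, -0.45 and -0.11. Nor were the other root hair markers called, with LRX1 and SHV2 at 0.17 and 0.03 and EXPA7 and RHD6 at -0.15 and -0.04. The other phloem markers, PP2-A1, SUC2 and APL, lay at 0.26, 0.11 and 0.03, not called. No stele, endodermis or xylem marker was called. The seed marker OLEO1 was also called (adjusted p 0.00776), with both seed markers at 0 in all 8 Col libraries and summed to 0 to 2.9 CPM in GABI_699B09. In the lines other than GABI_699B09 the seed markers summed to as much as 9.32 CPM in a library, so they were not particular to this line.

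A joint test of any difference among the 13 lines called 10.84% of all genes and, of the 6 genes, SLAH1 with an adjusted p of 0.0441. That call was lost without replicate 2 (0.408), replicate 3 (0.146) or replicate 4 (0.235) and with run 1 alone (0.694). The adjusted p was 0.319 for CLCa, 0.127 for CLCb, 0.746 for CLCc, 0.736 for SLAH2 and 0.229 for SLAH3. CLCb was below Col in all 12 lines, by between 0.08 in GABI_513E07 and 0.38 in SALK_085964C on the log2 scale, with an unadjusted p under 0.05 in 10 lines and a smallest adjusted p of 0.0726. Depending on the line, 1221 to 4397 of the 19664 genes tested had an unadjusted p under 0.05 against Col. With strip as a term, CLCb was called lower in 6 lines, SLAH3 lower in 4, SLAH1 higher in 2 and CLCc higher in 1. The share of all genes called against Col in that setting was not set out, so nothing particular to these genes is read from these counts. SLAH3, like CLCb, lay below Col in all 12 lines, by 0.10 to 0.50, and these comparisons again share the 8 Col libraries.

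The rest of both families was set beside the 6 genes, as were lists of genes that work with them. The counts of these lists, and of the marker lists after them, stand beside the 64.5% of all genes called over all lines, 34.1% higher and 30.4% lower, and nothing particular to a list is read from them. Of the other 4 CLC genes, 3 rose over all lines and 1 did not pass the test (34.1% of all genes were called higher), with a median log2 change of 0.21 against 0.02 for all genes. CLC-E, a gene of the chloroplast thylakoid, rose from 0.547 ± 0.344 to 1.1 ± 0.666 CPM (log2 change 0.98, adjusted p 2.04e-07). CLC-G rose by 0.27 and CLC-D, of the trans-Golgi network, by 0.16, a call that was lost with run 1 alone (adjusted p 0.46). In Col none of the 4 was called by edgeR, DESeq2 or limma, and 1 had an unadjusted p under 0.05.

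In the SLAC family SLAH4, the closest relative of SLAH1, fell from 6.59 ± 1.54 to 3.85 ± 0.929 CPM (SD, n = 52 each). Its log2 change was -0.78 ± 0.07 (adjusted p 4.16e-19), and in Col it was also called lower, at -1.17. SLAH1 and SLAH4 thus changed in opposite directions. SLAC1, the guard cell channel, had too few counts to be tested, with 110 summed over all libraries. ALMT genes encode another family of anion channels: of 14 listed 8 were tested, of which 2 rose and 6 fell, where 34.1% of all genes rose and 30.4% fell. AT1G08440 rose by 1.44, while AT1G68600 fell by 2.44 and AT4G00910 fell by 0.60, the last not called with strip as a term (adjusted p 0.262).

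Of 8 genes that release nitrate, chloride or potassium to the xylem or the medium, or retrieve nitrate from the xylem, 5 rose, none fell and 3 did not pass the test (median 0.22, with 34.1% of all genes called higher). NRT1.8, which takes nitrate back out of the xylem, rose from 11 ± 4.95 to 87.0 ± 31.0 CPM (log2 change 3.01, adjusted p 4.91e-42). SKOR, the channel that releases potassium into the xylem, rose from 3.38 ± 1.04 to 19.9 ± 5.16 CPM (2.55, adjusted p 1.02e-48), and AT3G45700 rose by 0.92. NAXT1, which exports nitrate from the root, had a log2 change of -0.02 (adjusted p 0.77).

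Of 9 tested kinases, calcium sensors and phosphatases known to act on SLAC or SLAH channels, 2 rose and 5 fell (median -0.13), where 64.5% of all genes were called. CBL1, a calcium sensor that recruits the kinase CIPK23, fell by 0.66 and CPK2, a calcium-dependent kinase, by 0.29, while OST1, the kinase that opens SLAC1, rose by 0.36. Of 10 genes of the vacuolar proton pumps, which energise the exchange by CLCa, none rose and 5 fell (median -0.08), where 30.4% of all genes fell. VHA-A, a subunit of the pump head, fell by 0.27, from 515 ± 56.9 to 428 ± 51.5 CPM. VHA-E1 fell by 0.18, not called with run 1 alone (adjusted p 0.0567), and VHA-A3 fell by 0.17, not called with strip as a term (adjusted p 0.0588).

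**Figure D5:**
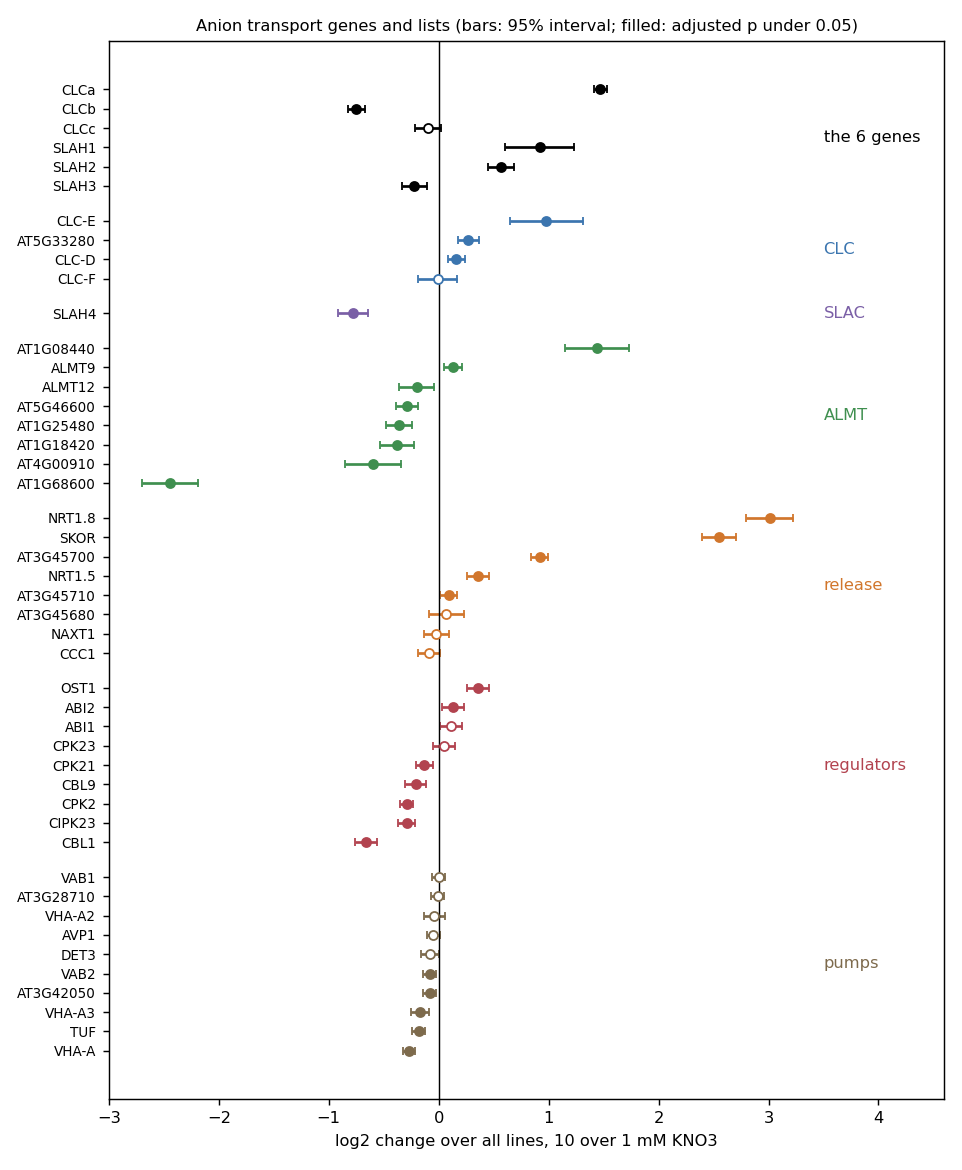
Log2 change over all lines between 10 and 1 mM KNO3 (horizontal axis) of the 6 genes in black and of the tested genes of 6 lists, with bars of the 95% interval and filled points for an adjusted p under 0.05; release stands for release to or retrieval from the xylem or medium, regulators for the kinases, sensors and phosphatases, and pumps for the vacuolar proton pumps. NRT1.8 at 3.01, SKOR at 2.55 and AT1G68600 at -2.44 lie farthest from 0, and the pump genes lie closest to it, between -0.27 and 0.

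Markers of tissues also moved with the KNO3 concentration, and their part in these results was not tested. The 3 stele and pericycle markers all rose, with a summed level of 111 to 150 CPM at 1 mM and 167 to 223 CPM at 10 mM, and PHO1 alone rose by 0.77. All 7 endodermis markers and all 4 xylem markers rose, with medians of 0.25 and 0.37, among them CASP5 by 2.01 and XCP1 by 0.39. LAC17 and SHR were not called with strip as a term, with adjusted p of 0.131 and 0.476, and VND7 was not called in the mixed strips alone (0.182).

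Root hair markers moved down: all 5 fell, with a median of -0.66 and a summed level of 183 to 417 CPM at 1 mM and 145 to 287 CPM at 10 mM. Of 4 phloem markers 3 rose, SEOR1 and PP2-A1 among them by 0.40 and 0.43, and SUC2 fell by 0.24, not called with strip as a term (adjusted p 0.249). All 8 markers of photosynthetic tissue rose, with a median of 1.02 and a summed level of 28.0 to 99.4 CPM at 1 mM and 56.2 to 200 CPM at 10 mM, RBCS1A from 8.69 ± 3.32 to 23.8 ± 8.21 CPM. Of 2 seed markers 1 was tested and not called. No marker of these lists was at 0 in every library. In GABI_699B09 the photosynthetic markers summed to 28.0 to 98.5 CPM (median 48.2) and in Col to 47.7 to 150 CPM (median 72.1), with 8 libraries each. The phloem markers summed to 158 to 197 CPM in GABI_699B09 and to 122 to 178 CPM in Col, and the root hair markers to 208 to 417 and 166 to 395 CPM. The sums of the stele markers were 111 to 185 and 123 to 201 CPM, and those of the endodermis 384 to 604 and 409 to 568 CPM. Those of the xylem were 127 to 206 and 122 to 213 CPM. Each of these ranges pools both concentrations, between which markers moved, so their overlap cannot show whether the line differs from Col.

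Genes on the opposite strand could affect the counts of 3 of the genes, by added or by lost reads, since the strand setting of the counting is not given in the sources used here. In TAIR10.1 the 3′ end of CLCb overlaps AT3G27180 by 362 bases, that of CLCa overlaps AT5G40880 by 39 bases and that of CLCc overlaps AT5G49880 by 30 bases. Away from its 3′ end, CLCb also overlaps the noncoding RNA gene AT3G05145 by 227 bases. AT3G27180 was counted at 4.22 ± 0.953 CPM at 1 mM and 4.88 ± 0.952 CPM at 10 mM, a log2 change of 0.21 (adjusted p 0.00131), opposite to that of CLCb. AT5G40880 and AT5G49880 were not called, with changes of -0.12 and -0.03. The 3 SLAH genes overlap no annotated gene.

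How the 6 genes varied together was described within the concentrations. Over all libraries, 52 at each concentration, and with the mean of each concentration taken off, Pearson's r between their log2 CPM ran from -0.26 for CLCb with SLAH2 to 0.31 for SLAH1 with SLAH2, and it was 0.23 for CLCa with CLCb. Among the 52 libraries at 1 mM alone, r over the 15 pairs ran from -0.27 for CLCb with CLCc to 0.42 for CLCb with SLAH3. At 10 mM alone it ran from -0.52 for CLCb with SLAH2 to 0.38 for SLAH1 with SLAH3. The difference between the concentrations was not tested: CLCb with SLAH2 was at -0.08 at 1 mM, CLCb with SLAH3 at -0.16 at 10 mM, and SLAH1 with SLAH3 at -0.03 at 1 mM. Libraries share strips and depth, so these are descriptions. The gene most like CLCa on this measure was AT2G32170 (r = 0.57), followed by CINV1, an invertase that splits sucrose (0.56), and ATG18H, an autophagy gene (0.55). For CLCb they were AT4G31860 (0.65), AT1G24320 (0.64) and bHLH115, a transcription factor (0.64).

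CLCc had the closest match, XXT5, a xylosyltransferase of xyloglucan synthesis (r = 0.69), then AGP2 (0.65) and AT3G06130 (0.64). For SLAH1 they were NUDT8 (0.52), AT1G23850 (0.51) and AT3G51000 (0.48), for SLAH2 AT1G67340 (0.53), AT3G59910 (0.52) and AT4G18260 (0.51), and for SLAH3 AT3G16800 (0.55), AT1G67870 (0.55) and AT3G56200 (0.52). All were taken as the 3 highest of the genes tested, over the same libraries. With group means taken off, 2 of 3 stayed for CLCa, 1 of 3 for CLCb, CLCc, SLAH2 and SLAH3, and 0 for SLAH1.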

How the data were processed

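The deposited values are whole-number read counts per locus, 1 file for each library and run. The submitters' processing notes name the build TAIR10 and the tools HTSeq, Bowtie, SAMtools, FastQC and limma; versions, settings and strand are not given in the sources used here. Runs were summed per library, and 279 organelle loci, which run 2 lists at 0, were left out. RefSeq's TAIR10.1 matched 32835 of the remaining 33323 loci by locus tag. At 10 mM, replicates 3 of SALK_035980 and SALK_085964C are named for each other's line in the files, and groups were taken from the labels.

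The tests were edgeR 4.0.16 quasi-likelihood tests (R 4.3.3) on TMM-scaled counts, over 19664 genes kept by filterByExpr (minimum count 10, groups given), with the 26 group means as coefficients and Benjamini-Hochberg adjustment. Steps were tested on simulated data. Tags carry no molecular identifiers in the files, so precision is that of libraries. The 6 genes, the lists and the motifs were chosen with earlier results of these data known. Named are the 6 genes, the 3 largest called changes of each list and the 3 genes most like each; NAXT1, SLAC1 and the overlapping genes were named after their values were seen. Alternatives were DESeq2 1.42.0, its size factors, limma 3.58.1 (voom), no filter, strip or replicate number as a term, single runs, left-out or exchanged libraries, replicates or lines, and mixed strips alone. Replicate numbers did not pair the samples across concentrations (see the closing part).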

Additional observations from a re-analysis of the deposited data

Results flagged for a closer look

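In 11 of 156 groups of 4 libraries, 1 library stood apart from the rest beyond Dixon's 95% limit, which chance passes in about 1 in 20 groups. CLCa was at 51.75 CPM in SAIL_1207_H04 replicate 1 at 1 mM, where the others held 59.57 to 60.27, and at 194.1 CPM in SALK_035980 replicate 2 at 10 mM, where the others held 149.5 to 155.2. CLCb was at 104.7 CPM in GABI_513E07 replicate 2 at 1 mM, above the other 3 at 78.84 to 82.85.

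CLCc was at 15.56 CPM in GABI_699B09 replicate 2 at 10 mM, below the others at 23.44 to 24.98, and at 10.43 CPM in SALK_035980 replicate 1 at 10 mM, below the others at 19.25 to 20.36. SLAH1 was at 2.619 CPM in SALK_070847C replicate 4 at 1 mM, against 0.9407 to 1.048, and at 6.084 CPM in SALK_100002 replicate 1 at 10 mM, against 1.937 to 2.634. The second of these lies in a line whose SLAH1 response was called. That call was lost when all libraries numbered 1, at both concentrations, were left out (1.70, adjusted p 0.0624). It was lost as well without those numbered 2 (1.85, adjusted p 0.0783) and with run 1 alone (1.67, adjusted p 0.0966). Leaving out the flagged library alone was not tested.

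SLAH2 was at 8.526 CPM in GABI_513E07 replicate 2 at 10 mM, against 6.51 to 6.592, and at 6.173 CPM in GABI_699B09 replicate 4 at 1 mM, against 4.507 to 4.64. SLAH3 was at 10.71 CPM in SALK_085964C replicate 3 at 1 mM, against 6.359 to 6.821, and at 4.847 CPM in SALK_100002 replicate 2 at 10 mM, against 8.87 to 9.222.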

How the results depend on the processing

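Over all lines the 12675 genes called became 7563 with strip as a term and 6568 in the mixed strips alone, and the 5 of the 6 genes called became 3 in both. SLAH1 was then at 0.67 and 0.74 and SLAH3 at -0.25 and -0.20, not called. CLCc was at -0.29 with run 1 alone, 0.01 with run 2 alone and -0.13 without GABI_699B09 (adjusted p 0.0461), and between -0.19 and 0.01 when a replicate number was left out, called without replicate 3 (adjusted p 0.0147) and replicate 4 (0.034). With it, all 6 genes were called in 4 settings: run 1 alone, without GABI_699B09 and without replicate 3 or 4. SLAH3 was at -0.35 without replicate 1. CLCa, CLCb and SLAH2 kept their calls over all lines. In Col the 4771 genes called became 2171 with run 1 alone. Col SLAH1 was called with the line alone (1.36) and with the replicate block (1.33), and with strip as a term it was 0.79 (adjusted p 0.255). Col SLAH2 was not called with run 1 alone (0.76), and leaving out a replicate gave 0.62 (replicate 4, not called) to 1.03. Col SLAH3 was at 0.01 with run 1 alone and -0.34 with strip as a term, and Col CLCc ran from -0.59 to 0.01 when a replicate was left out. The cause of these shifts was not tested.

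Against Col, the 1 pair called became 2 with DESeq2 (CLCb in SALK_085964C added), 3 with the replicate block, 13 with strip as a term, 0 with run 1 alone and 0 to 5 without a replicate. Shares of all genes called against Col in these settings were not set out. In the joint test of lines the 1 gene called became 3 with strip as a term, 2 with the replicate block, 0 with run 1 alone and 0 to 1 without a replicate. DESeq2 was not run for the joint tests. Over 52 pairs of libraries of the same line and number, r of the deviations ran from -0.213 to 0.143 (median -0.022), so the numbers do not pair the samples. SLAH1 counts, 0 to 65 in a library, limit what can be seen of that gene.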
